A study of Homo sapiens with 12 samples.

Results

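The 36 genes described here encode the steps of glycolysis, from glucose uptake to lactate export, and genes known to be induced in hypoxia. They were taken from the deposited expression table, which lists 59191 features, by matching Ensembl identifiers to a fixed list of symbols. All 36 were among the 15352 genes tested. The RNA came from Huh7, a long-established line of human liver cancer cells, and was sequenced in 12 libraries, 3 in each of 4 groups. The control cells received the solvent DMSO, going by the column names, and the other groups received disulfiram, thalidomide or both drugs (the combination). Disulfiram inhibits aldehyde dehydrogenases and forms copper complexes, and thalidomide redirects a ubiquitin ligase by binding its receptor subunit, cereblon. The sources used here give neither treatment length, doses with units nor read depth. The labels do not say that the libraries of a group came from separate cultures, and the p-values therefore speak only for the spread among these libraries, which may be technical.

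Glycolysis splits glucose into pyruvate, and lactate dehydrogenase turns pyruvate into lactate for export. In the presence of oxygen and iron, prolyl hydroxylases (the EGLN enzymes) mark the alpha subunits of hypoxia-inducible factor (HIF) for destruction by the VHL ubiquitin ligase. When hydroxylation fails, HIF accumulates and switches on glucose transporters, glycolytic enzymes, mitophagy receptors and its own hydroxylases. HIF-alpha is controlled mainly at the protein level, which RNA does not show. Liver tumours commonly run glycolysis at a high rate even with oxygen present.

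Values are TPM, a share of all transcripts that is scaled for transcript length. Fold changes are differences of log2(TPM + 1) with their standard error (SE), which understate changes of genes near 1 TPM. A gene was called changed when its limma p-value, adjusted over all genes tested, was below 0.05. Each column is 1 value per gene for a whole library, so a change in the mix of cells and a change of expression within cells cannot be told apart. As TPM is a share, neither the number of cells nor the total RNA per cell shows in it.

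Genes at 1 TPM or more numbered 13693 to 14097 per control library, 13711 to 14207 with thalidomide, 14206 to 14790 with disulfiram and 14681 to 15038 in the combination. Libraries of 1 group also differed from each other, and this touched the members. The correlation across genes of a library's deviation from its group mean with GC content ran from -0.18 to 0.13 in controls and from -0.59 to 0.66 over all libraries. It was highest in the second disulfiram library (0.60) and the second combination library (0.66), where AT-rich genes were low. Of the 11 members below the median GC content of the genes tested (48.8%), 8 were lowest in the second library of the disulfiram group, and 8 in that of the combination group. Control replicate 3 was the lowest control for 31 of 36 members, against 38.3% of all genes, and thalidomide replicate 3 was the lowest of its group for 28, against 25.3%. Disulfiram 1 was the lowest of its group for 23 members (27.5% of all genes), and combination 3 for 23 (21.2%). The extraction text in the labels describes dissociated patient tissue and single-cell 3' libraries, which does not match 12 columns of a cell line. How these libraries were made is therefore uncertain, and with 3' libraries the length scaling of TPM would not hold. All 10 hepatocyte and hepatoma markers reached 1 TPM, at summed levels of 4290 to 6860 TPM in controls, 4050 to 4110 with disulfiram, 5500 to 7670 with thalidomide and 3650 to 4780 in the combination. ALB was at 1046 to 1472 TPM in controls and 586 to 952 TPM with disulfiram. AFP, APOH, TTR, FGB and AHSG were also lower with disulfiram without overlap, while APOA1, APOA2, SERPINA1 and TF overlapped. Of 10 immune markers 3 reached 1 TPM (CD14, CD3D and LYZ). The immune list summed to 117 to 179, 76.2 to 149, 122 to 172 and 101 to 107 TPM in control, disulfiram, thalidomide and combination, the order also used below. CD14 carried most of that sum, at 99.1 to 169.3 TPM in controls and a lower, overlapping 49.8 to 119.2 TPM with disulfiram. LYZ was at 4.76 to 6.14 TPM in controls and 10.9 to 14.6 TPM with disulfiram, and CD3D at 4.32 to 12.3 and 11.5 to 17.5 TPM. The defining immune marker PTPRC was at 0.16 TPM or less in all libraries, and MS4A1 and C1QA were at 0. Of 6 endothelial markers 2 reached 1 TPM (EGFL7 and PECAM1; list sums 105 to 118, 108 to 124, 91.8 to 131 and 93.5 to 131 TPM). PECAM1 was at 0.69 to 1.41 TPM in controls and 3.40 to 7.37 TPM with disulfiram, while KDR was at 0.01 TPM or less. The abundant EGFL7 overlapped, at 103.9 to 116.3 TPM in controls and 102.6 to 119.8 TPM with disulfiram. Of 8 fibroblast or stellate markers 5 reached 1 TPM (list sums 71.8 to 86.2, 61.5 to 74.4, 57.2 to 87.2 and 65.2 to 93.5 TPM). RGS5 was higher with disulfiram, at 0.72 to 2.51 TPM in controls and 3.15 to 5.07 TPM with disulfiram. LUM was lower, at 32.7 to 36.5 TPM in controls and 15.4 to 22.1 TPM with disulfiram, and COL1A1, COL1A2 and PDGFRB overlapped. The part of these differences in the results was not tested, apart from the values given without single libraries.

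With disulfiram, 14 of the 36 members rose and none fell. They were the glucose transporter SLC2A1, the enzymes HK2, GPI, PFKP, PFKFB3 and PGAM1, the pyruvate dehydrogenase kinase PDK1, and the hypoxia response genes ADM, BNIP3, ANKRD37, EGLN3, P4HA2, KDM3A and BHLHE40. Among all genes tested, 8.73% rose and 4.52% fell, against 38.9% and 0.0% of the members. The members were chosen with earlier results of these data known, so these shares describe them and are no independent support. PFKP, ANKRD37 and SLC2A3 reached 1 TPM in at least 3 libraries, as testing required, only with the help of libraries with disulfiram. The counts, shares and medians of members, here and for the combination, include them. That PFKP and ANKRD37 are among the 14 is therefore no support. The median log2 fold change of the members was 0.57, beside 0.09 for all genes. The 3 disulfiram libraries all lay above the 3 controls for 19 members, where 21.5% of all genes did so, and below them for PFKL alone, where 11.4% of all genes did so. Scaling the libraries by the median of ratios, which sets the median of all genes to -0.02, left 11 members higher, none lower and a member median of 0.44. Over all genes the same scaling moved the share of called genes that were higher from 65.9% to 40.1%, quantile normalization moved it to 47.6% and a GC correction to 42.0%. Under the GC correction 14 members were higher and 2 lower (PFKL and GAPDH).

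**Figure D1:**
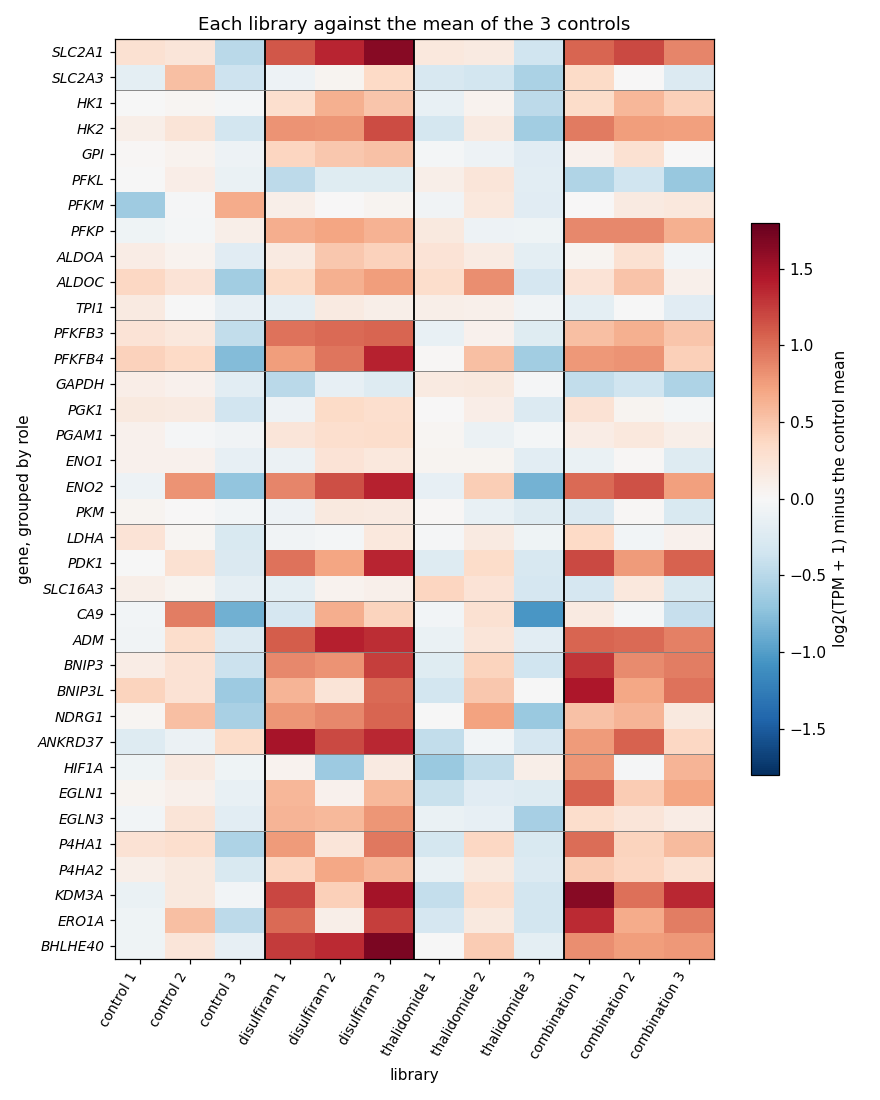
Each row is a gene and each column a library; the colour is log2(TPM + 1) minus the mean of the 3 controls, red for higher and blue for lower. The disulfiram and combination columns are red for SLC2A1, HK2, ADM, PDK1, KDM3A and BHLHE40, and for these genes the thalidomide columns stay near the controls.

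Promoters are shown for the 4 members with the largest rise under disulfiram on the log2(TPM + 1) scale and for the 2 most abundant members that were not called with disulfiram, so that both kinds can be read side by side. Sequences are from RefSeq (GRCh38.p14), 5′ to 3′ on the gene's strand, from 250 bases before to 50 bases after the start. Where several starts were listed for a gene, only the first was used, and the others were not searched. Each window shown lies inside the gene's annotated span, so the start used is not the outermost one. Capitals mark the HIF core motifs ACGTG and GCGTG on either strand, so CACGT and CACGC are also in capitals. A palindromic CACGTG, the E-box that other factors also bind, counts as 2 matches. The windows are chr3:4979187-4979486 (plus strand) for BHLHE40, chr1:42958819-42959118 (minus) for SLC2A1, chr4:185396591-185396890 (plus) for ANKRD37, chr11:10304823-10305122 (plus) for ADM, chr12:6535014-6535313 (plus) for GAPDH and chr1:8878637-8878936 (minus) for ENO1.
BHLHE40: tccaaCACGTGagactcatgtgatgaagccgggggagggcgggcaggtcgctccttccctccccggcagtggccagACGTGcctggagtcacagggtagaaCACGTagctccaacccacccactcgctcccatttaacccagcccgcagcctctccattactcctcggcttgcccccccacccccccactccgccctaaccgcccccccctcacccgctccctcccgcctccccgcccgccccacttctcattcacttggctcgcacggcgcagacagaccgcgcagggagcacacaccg
SLC2A1: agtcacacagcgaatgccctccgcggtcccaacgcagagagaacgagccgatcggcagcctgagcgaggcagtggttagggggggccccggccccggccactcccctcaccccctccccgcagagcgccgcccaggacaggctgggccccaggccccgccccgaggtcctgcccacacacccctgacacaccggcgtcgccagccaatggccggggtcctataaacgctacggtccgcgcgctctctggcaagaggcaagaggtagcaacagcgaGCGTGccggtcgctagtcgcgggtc
ANKRD37: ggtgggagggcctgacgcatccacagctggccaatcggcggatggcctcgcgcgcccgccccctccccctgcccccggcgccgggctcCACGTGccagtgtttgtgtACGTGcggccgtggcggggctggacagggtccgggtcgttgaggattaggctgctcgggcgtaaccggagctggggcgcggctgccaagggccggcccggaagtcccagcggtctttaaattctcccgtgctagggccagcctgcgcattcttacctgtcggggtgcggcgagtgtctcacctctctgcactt
ADM: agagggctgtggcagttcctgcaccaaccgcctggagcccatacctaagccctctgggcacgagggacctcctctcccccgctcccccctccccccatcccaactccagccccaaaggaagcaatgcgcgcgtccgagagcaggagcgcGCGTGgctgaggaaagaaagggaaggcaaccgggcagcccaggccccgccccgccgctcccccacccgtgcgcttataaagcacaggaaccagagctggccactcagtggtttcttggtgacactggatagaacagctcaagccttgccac
GAPDH: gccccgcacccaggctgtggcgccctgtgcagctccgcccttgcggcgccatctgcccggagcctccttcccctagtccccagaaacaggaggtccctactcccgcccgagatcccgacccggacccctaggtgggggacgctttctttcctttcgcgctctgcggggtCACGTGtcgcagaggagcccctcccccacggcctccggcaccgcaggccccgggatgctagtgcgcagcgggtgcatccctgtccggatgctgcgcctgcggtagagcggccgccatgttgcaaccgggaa
ENO1: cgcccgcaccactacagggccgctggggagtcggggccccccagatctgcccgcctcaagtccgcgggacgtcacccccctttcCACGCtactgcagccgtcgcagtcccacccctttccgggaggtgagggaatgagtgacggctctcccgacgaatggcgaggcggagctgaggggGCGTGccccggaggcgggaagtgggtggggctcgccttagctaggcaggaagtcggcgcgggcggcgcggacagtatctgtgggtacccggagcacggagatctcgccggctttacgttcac

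BHLHE40 held 4 matches and ANKRD37 held 3, all upstream of the start, and in each of them 2 of the matches were the same E-box; ADM held 1 at -101, and the single match of SLC2A1 lay 25 bases past the start. GAPDH and ENO1 held 2 each, those of GAPDH being 1 E-box at -81. RefSeq promoters were matched for 33 of the 36 members. Either core occurred in 24 of these 33 (72.7%) and in 48.4% of all 27305 promoters. It occurred in 11 of the 16 members called higher with disulfiram or the combination (68.8%) and in 13 of the 17 others (76.5%). The letters TGCACNC or TGCGCNC, the core bound by the metal-responsive factor MTF1, occurred on either strand in 45.5% of members and 29.3% of all promoters, in 6 of the 16 and 9 of the 17. A match describes the letters in the window and shows no binding.

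Among the glycolytic members, the glucose transporter SLC2A1 had the largest called rise with disulfiram on the log2(TPM + 1) scale; with a pseudocount of 0.1, PFKP (1.48) was above it (1.40). SLC2A1 (GLUT1, ENSG00000117394, chromosome 1, 42925375 to 42959176, hg38) is the main glucose transporter of many tumours. It stood at 43.6, 42.0 and 25.5 TPM in controls and at 79.0, 95.3 and 114.8 TPM with disulfiram. Thalidomide libraries held 41.5, 40.6 and 27.8 TPM, and combination libraries 75.5, 83.8 and 67.2 TPM. All 6 libraries with disulfiram lay above all 6 without it. The log2 fold change was 1.38 ± 0.21 (SE, adjusted p = 0.00192) for disulfiram and 1.04 ± 0.21 (adjusted p = 0.00699) for the combination. SLC2A3, the high-affinity transporter GLUT3, lay between 0.39 and 2.00 TPM in the 12 libraries and was not called in any comparison.

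In the preparatory steps, which spend ATP, 3 of 9 members rose with disulfiram. HK2 (chromosome 2, 74833981 to 74893359), the hexokinase typical of tumours, held 25.8, 28.3 and 18.8 TPM in controls against 42.9, 42.4 and 55.5 TPM with disulfiram. It held 19.1, 27.0 and 15.2 TPM with thalidomide and 46.8, 40.9 and 40.7 TPM in the combination. The groups with and without disulfiram did not overlap, and HK2 rose by 0.93 ± 0.20 (adjusted p = 0.00971) and 0.81 ± 0.20 (adjusted p = 0.0145) in the disulfiram and combination groups. The combination call was lost without control 3 (adjusted p = 0.0553) and without combination 1 (adjusted p = 0.0577). HK1, the widely expressed hexokinase, lay at 0.66 to 1.41 TPM without disulfiram and at 1.82 to 2.59 TPM in the libraries with it. It was not called against control, at 0.48 ± 0.17 with disulfiram (adjusted p = 0.0845) and 0.45 ± 0.17 in the combination (adjusted p = 0.0683).

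GPI, which turns glucose-6-phosphate into fructose-6-phosphate, held 269.6, 278.4 and 248.8 TPM in controls and 346.7, 370.8 and 382.1 TPM with disulfiram. Thalidomide libraries held 259.6, 248.4 and 229.6 TPM and combination libraries 280.8, 322.2 and 266.5 TPM. It rose with disulfiram by 0.46 ± 0.08 (adjusted p = 0.00464), and the combination value was 0.12 ± 0.08 (adjusted p = 0.282; -0.11 under median-of-ratios scaling). The combination lay between control and disulfiram, overlapping the controls, and under median-of-ratios scaling the disulfiram call was lost (adjusted p = 0.0845).

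Phosphofructokinase commits sugar to glycolysis, and in the combination its PFKL form fell while PFKP rose. PFKL, the liver type and the main form here, held 107.4, 118.2 and 100.1 TPM in controls and 77.9, 93.4 and 93.1 TPM with disulfiram. It held 116.1, 125.7 and 94.6 TPM with thalidomide and 73.8, 83.9 and 67.3 TPM in the combination. PFKL fell in the combination by 0.53 on the log2 scale (SE 0.12, adjusted p = 0.0119); with disulfiram the value was -0.30 ± 0.12 (adjusted p = 0.133). The fall was not called without combination 3 (adjusted p = 0.0579).

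PFKP, the platelet type, held 0.28, 0.32 and 0.46 TPM in controls and 1.13, 1.22 and 1.09 TPM with disulfiram. It held 0.52, 0.27 and 0.28 TPM with thalidomide and 1.45, 1.46 and 1.10 TPM in the combination. It rose by 0.67 ± 0.15 (adjusted p = 0.0141) and 0.79 ± 0.15 (adjusted p = 0.00535). PFKP passed the filter only through libraries with disulfiram (6 of 6 at 1 TPM or more, against 0 of 6 without), and ANKRD37 (6 against 2) and SLC2A3 (4 against 1) passed it only with their help, so these 3 had to be high with disulfiram to be tested. The disulfiram call was lost without control 1 (adjusted p = 0.0508) and under quantile normalization (adjusted p = 0.108), as was the combination call under the latter (adjusted p = 0.0668). PFKM, the muscle type, ranged from 4.95 to 13.85 TPM over all libraries and was not called.

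As shares of the 3 isozymes' summed TPM, PFKP went from 0.301% ± 0.088 (SD, n = 3) in controls to 1.18% ± 0.11 with disulfiram and 1.56% ± 0.16 in the combination, with 0.297% ± 0.111 under thalidomide. PFKL kept the main share throughout, 92.1% ± 4.1 in controls and 87.7% ± 1.2 in the combination. ENO2, the neuronal enolase, made up 1.2% ± 0.58 of summed ENO1 and ENO2 in controls, 2.32% ± 0.24 with disulfiram, 1.05% ± 0.40 with thalidomide and 2.37% ± 0.16 in the combination; the muscle enolase ENO3 is not in this sum. For both PFKP and ENO2 the share in every library with disulfiram was above that in every library without it. The shares of HK1 and ALDOC overlapped between groups. No test was run on shares.

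**Figure D2:**
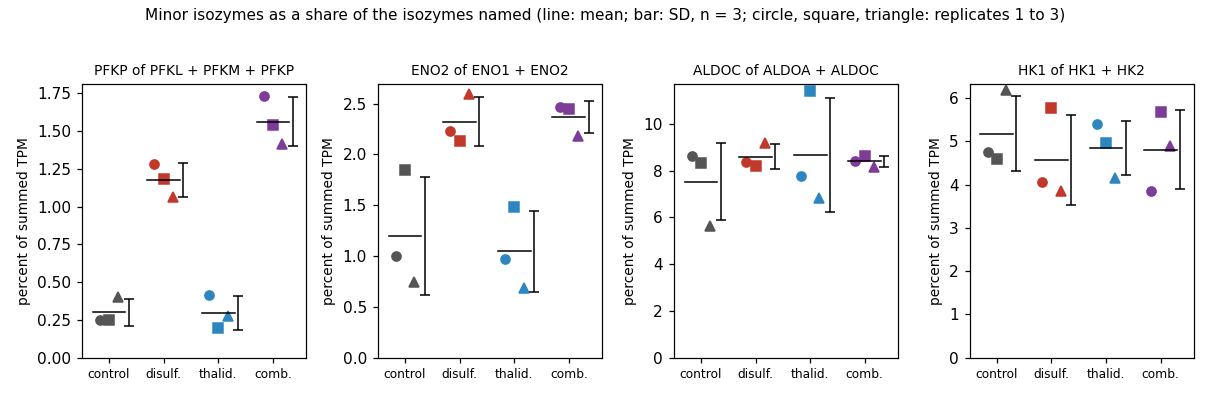
Points give a minor isozyme's percent of the summed TPM of the isozymes named above each panel in each library, by group, with the mean (line) and SD (bar, n = 3). PFKP and ENO2 shares are higher in the disulfiram and combination groups, while those of ALDOC and HK1 overlap.

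The remaining preparatory members were abundant and not called with disulfiram or the combination. ALDOA, the main aldolase, was the most abundant preparatory enzyme. It held 2299, 2190 and 1815 TPM in controls, 2330, 2927 and 2783 TPM with disulfiram, 2470, 2327 and 1850 TPM with thalidomide, and 2173, 2533 and 2011 TPM in the combination. Its disulfiram libraries all lay above the controls, at a fold change of 0.35 ± 0.13 (adjusted p = 0.106). ALDOA shares its locus with an overlapping gene on the same strand, AC093512.2 (48.3 to 86.5 TPM). The minor aldolase ALDOC (108.4 to 300.7 TPM) and triosephosphate isomerase TPI1 (1763 to 2260 TPM) were not called in any comparison.

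PFKFB3 and PFKFB4 make fructose-2,6-bisphosphate, the strongest activator of phosphofructokinase. PFKFB3 (chromosome 10, 6144934 to 6254644) held 33.2, 31.9 and 20.3 TPM in controls and 55.7, 57.3 and 58.6 TPM with disulfiram. Thalidomide libraries held 25.3, 29.4 and 23.8 TPM and combination libraries 41.0, 44.0 and 39.7 TPM. The combination lay between control and disulfiram with no overlap on either side. PFKFB3 rose by 1.01 ± 0.15 with disulfiram (adjusted p = 0.00175) and by 0.56 ± 0.15 in the combination (adjusted p = 0.0235). The combination call was lost without control 3 (0.34, adjusted p = 0.0514), combination 1 (adjusted p = 0.0673) or combination 3 (adjusted p = 0.0617). It was also lost under median-of-ratios scaling (0.33, adjusted p = 0.147). PFKFB4 went from 13.0 to 30.9 TPM in controls to 39.6 to 61.8 TPM with disulfiram, at 1.04 ± 0.33 (adjusted p = 0.060). It was called without thalidomide 2 (adjusted p = 0.0469) or thalidomide 3 (adjusted p = 0.0422), which enter only through the shared spread.

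The payoff steps, which make ATP, held the most abundant transcripts, and 1 of 6 members was called with disulfiram. GAPDH (chromosome 12, 6533927 to 6538374), often used as a reference gene, held 10634, 10331 and 8643 TPM in controls and 7021, 8875 and 8357 TPM with disulfiram. It held 10989, 11071 and 9643 TPM with thalidomide and 7200, 7648 and 6713 TPM in the combination, whose libraries all lay below the controls. GAPDH fell in the combination by 0.45 (SE 0.10, adjusted p = 0.0117), and the disulfiram value was -0.29 ± 0.10 (adjusted p = 0.0924). The fall was not called without combination 3 (adjusted p = 0.0562), while the disulfiram value was called without control 3 (-0.38, adjusted p = 0.0494). Its direction against control was the same under each scaling tried. The 62 GAPDH pseudogenes listed summed to 2.27 to 5.98 TPM.

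PGAM1, phosphoglycerate mutase, held 544.6, 508.5 and 490.2 TPM in controls and 595.2, 631.0 and 638.5 TPM with disulfiram. It held 524.3, 477.4 and 500.5 TPM with thalidomide and 563.3, 586.7 and 552.4 TPM in the combination. It rose with disulfiram by a small 0.27 ± 0.06 (adjusted p = 0.0164), and the combination value was 0.14 ± 0.06 (adjusted p = 0.115; -0.10 under median-of-ratios scaling). The call was lost without control 2, control 3 or disulfiram 3 (adjusted p 0.0568 to 0.0684), under median-of-ratios scaling (adjusted p = 0.395) and under the GC correction (adjusted p = 0.0991).

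ENO2 ranged from 16.8 to 49.99 TPM in controls and from 52.9 to 75.7 TPM with disulfiram, with a fold change of 1.15 ± 0.36 (adjusted p = 0.0551). It was called without control 2 (1.55, adjusted p = 0.0139), the highest control, and without thalidomide 2 (adjusted p = 0.0409) or thalidomide 3 (adjusted p = 0.0377). In the combination it was 0.97 ± 0.36 (adjusted p = 0.0663), called without control 2 (adjusted p = 0.0196) or thalidomide 3 (adjusted p = 0.0476). ENO2 overlaps LRRC23 on the same strand (23.7 to 39.0 TPM). PGK1 (261.8 to 420.1 TPM), ENO1 (2139 to 2958 TPM) and PKM (1151 to 1583 TPM), which carry out the steps down to pyruvate, had fold changes of 0.19, 0.10 and 0.08 with disulfiram and were not called. PKM was called lower in the combination without combination 2 (-0.27, adjusted p = 0.0486).

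Summed over the 16 member enzymes from hexokinase to lactate dehydrogenase, glycolytic transcripts made up 20600 ± 2174 TPM in controls (SD, n = 3; 2.06% of all TPM), 20110 ± 2198 TPM with disulfiram, 21307 ± 1792 TPM with thalidomide and 17786 ± 1227 TPM in the combination. Without GAPDH the 15 others summed to 10731 ± 1106, 12026 ± 1255, 10740 ± 991 and 10598 ± 760 TPM. For the sum of all 16 enzymes the means of control and disulfiram differed by less than either SD. Without GAPDH the disulfiram mean was above the control mean by slightly more than either SD. In both sums the libraries of the combination and of disulfiram overlapped those of the controls. Summed RNA of the pathway was thus not separated from the controls in either group, while SLC2A1, HK2 and PFKFB3 rose. For all 16 enzymes the combination mean was below the control mean by more than either SD. There the combination libraries (16543 to 18997 TPM) also all lay below the thalidomide libraries (19238 to 22363 TPM). Without GAPDH the libraries of combination and thalidomide overlapped.

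**Figure D3:**
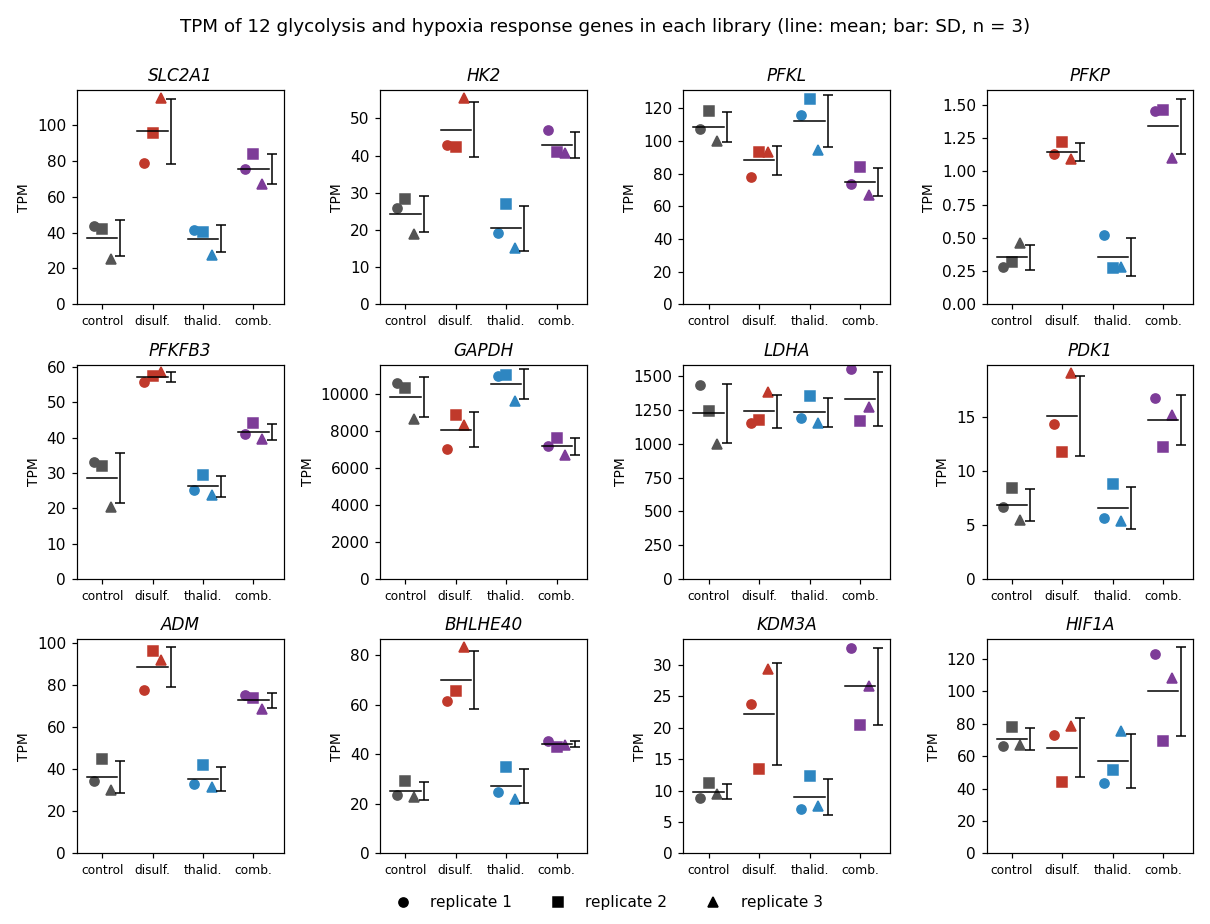
TPM of 12 members in each library, by group, with a line at the mean and a bar for the SD (n = 3). SLC2A1, HK2, PFKP, PFKFB3, PDK1, ADM, BHLHE40 and KDM3A stand higher in all libraries with disulfiram than in controls, and LDHA overlaps in all groups.

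At the fate of pyruvate, PDK1 (chromosome 2, 172555373 to 172608669), which switches off pyruvate dehydrogenase, held 6.70, 8.44 and 5.46 TPM in controls and 14.4, 11.8 and 19.1 TPM with disulfiram. Thalidomide libraries held 5.60, 8.81 and 5.34 TPM and combination libraries 16.8, 12.2 and 15.2 TPM. PDK1 rose by 1.02 ± 0.22 (adjusted p = 0.010) and 1.01 ± 0.22 (adjusted p = 0.0086), with no overlap between libraries with and without disulfiram. LDHA, which makes lactate and was the most abundant of these members, held 1434, 1242 and 1001 TPM in controls, 1158, 1180 and 1381 TPM with disulfiram, 1194, 1353 and 1151 TPM with thalidomide and 1557, 1171 and 1275 TPM in the combination. All groups overlapped, and its disulfiram fold change was 0.03 ± 0.14 (adjusted p = 0.925). The lactate exporter SLC16A3 (MCT4) ranged from 230.3 to 374.9 TPM and was not called; CSNK1D overlaps it on the opposite strand (77.9 to 89.3 TPM).

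Of the classical hypoxia markers ADM and CA9, ADM rose and CA9 was not called. ADM (chromosome 11, 10304680 to 10307397) encodes adrenomedullin, a vasodilator peptide. It held 34.3, 44.8 and 30.2 TPM in controls and 77.9, 96.2 and 91.9 TPM with disulfiram. It held 33.0, 42.0 and 31.5 TPM with thalidomide and 75.5, 74.1 and 68.6 TPM in the combination. ADM rose by 1.27 ± 0.15 (adjusted p = 0.000363) and 1.00 ± 0.15 (adjusted p = 0.00156). CA9, a carbonic anhydrase of the cell surface that acidifies the surroundings of hypoxic cells, ranged from 14.8 to 61.0 TPM with overlap in all groups. Its disulfiram fold change was 0.25 ± 0.43 (adjusted p = 0.762), and -0.19 without control 3 (adjusted p = 0.838).

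Among mitophagy and stress genes, BNIP3 and ANKRD37 rose with disulfiram and with the combination. BNIP3, a mitophagy receptor, held 76.4, 83.6 and 53.5 TPM in controls and 127.6, 123.4 and 167.1 TPM with disulfiram. It held 60.1, 92.3 and 54.3 TPM with thalidomide and 171.9, 126.6 and 133.7 TPM in the combination, so libraries with and without disulfiram did not overlap. The fold changes were 0.97 ± 0.22 (adjusted p = 0.0124; 0.0561 without disulfiram 3) and 1.02 ± 0.22 (adjusted p = 0.00806). The related receptor BNIP3L held 33.3, 30.2 and 15.5 TPM in controls, 39.0, 29.5 and 51.6 TPM with disulfiram, 19.8, 35.6 and 24.8 TPM with thalidomide and 70.3, 41.4 and 50.2 TPM in the combination. BNIP3L rose in the combination by 1.04 ± 0.31 (adjusted p = 0.0301) and overlapped with disulfiram (0.62 ± 0.31, adjusted p = 0.214). The combination call was lost without control 3, combination 1 or combination 3 (adjusted p 0.0765 to 0.119) and under the GC correction (adjusted p = 0.107); BNIP3L has a GC content of 38.9%.

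ANKRD37, an ankyrin repeat protein known as a HIF target, held 0.77, 0.93 and 1.62 TPM in controls and 4.82, 3.71 and 4.32 TPM with disulfiram. It held 0.52, 1.01 and 0.69 TPM with thalidomide and 2.54, 3.33 and 1.68 TPM in the combination. It rose by 1.34 ± 0.21 (adjusted p = 0.00213) and 0.73 ± 0.21 (adjusted p = 0.028). The combination call was lost without control 1, control 2, combination 1 or combination 2 (adjusted p 0.0663 to 0.0966) and under the GC correction (0.37, adjusted p = 0.266). UFSP2 overlaps it on the opposite strand (1.31 to 4.28 TPM). NDRG1, a stress-induced gene and the most abundant of this role, held 177.0, 252.8 and 115.6 TPM in controls, 299.4, 316.9 and 359.4 TPM with disulfiram, 171.7, 287.4 and 108.3 TPM with thalidomide and 249.8, 265.0 and 196.4 TPM in the combination. Its disulfiram libraries all lay above the controls, at 0.90 ± 0.32 (adjusted p = 0.0843). It was called without control 2 (1.17, adjusted p = 0.0456), thalidomide 2 (adjusted p = 0.0396) or thalidomide 3 (adjusted p = 0.0438).

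HIF1A itself (chromosome 14, 61695513 to 61748259), the oxygen-regulated subunit, was not called with disulfiram. It held 66.1, 78.1 and 66.5 TPM in controls and 73.0, 44.3 and 78.4 TPM with disulfiram, at -0.14 ± 0.26 (adjusted p = 0.772). It held 43.7, 51.5 and 75.6 TPM with thalidomide and 122.6, 69.1 and 107.8 TPM in the combination. The combination value was 0.47 ± 0.26 against control (adjusted p = 0.185) and 0.80 ± 0.26 against thalidomide (adjusted p = 0.035). HIF1A is AT-rich (GC content 36.4%) and was lowest in the second disulfiram and second combination libraries. Without combination 2 the value against control was 0.71 (adjusted p = 0.0497), and under the GC correction it turned to -0.04 (adjusted p = 0.834). Under the same correction the value against thalidomide was 0.22 (adjusted p = 0.215). The call against thalidomide was also lost without thalidomide 1, thalidomide 2, combination 1 or combination 3 (adjusted p 0.0869 to 0.135).

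The hydroxylase EGLN3 (PHD3), which marks HIF for destruction and is itself induced by HIF, held 28.9, 35.4 and 26.2 TPM in controls and 46.2, 45.2 and 52.5 TPM with disulfiram. It held 27.5, 27.0 and 19.4 TPM with thalidomide and 37.7, 34.9 and 33.0 TPM in the combination. EGLN3 rose with disulfiram by 0.66 ± 0.14 (adjusted p = 0.011), and the combination, which overlapped the controls, was at 0.22 ± 0.14 (adjusted p = 0.245). EGLN1 (PHD2), the main oxygen sensor, held 41.0, 42.1 and 36.04 TPM in controls, 60.5, 41.8 and 59.97 TPM with disulfiram, 29.6, 34.3 and 33.5 TPM with thalidomide and 84.1, 55.0 and 65.6 TPM in the combination. EGLN1 rose in the combination by 0.75 ± 0.17 (adjusted p = 0.00979), with no overlap with controls. With disulfiram it was at 0.42 ± 0.17 (adjusted p = 0.119), and without disulfiram 2 at 0.59 (adjusted p = 0.0298). SPTSSA overlaps EGLN3 on the same strand (6.67 to 15.9 TPM).

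In the last role, collagen hydroxylation, chromatin and protein folding, 3 of 5 members rose with disulfiram. BHLHE40 (DEC1, chromosome 3, 4979116 to 4985323), a transcriptional repressor, had the largest fold change of the 36 with disulfiram on the log2(TPM + 1) scale. With a pseudocount of 0.1 the low genes ANKRD37 (1.92) and PFKP (1.48) were above it (1.46). It held 23.7, 29.4 and 22.6 TPM in controls and 61.3, 65.3 and 83.1 TPM with disulfiram. It held 24.8, 34.7 and 22.0 TPM with thalidomide and 45.5, 43.0 and 43.6 TPM in the combination. The combination libraries lay above all controls and below all disulfiram libraries. BHLHE40 rose by 1.43 ± 0.16 (adjusted p = 0.000336) and 0.79 ± 0.16 (adjusted p = 0.00731).

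KDM3A, an oxygen-using histone demethylase, held 8.87, 11.2 and 9.42 TPM in controls and 23.8, 13.4 and 29.3 TPM with disulfiram. It held 7.00, 12.3 and 7.58 TPM with thalidomide and 32.7, 20.5 and 26.7 TPM in the combination. It rose by 1.04 ± 0.27 (adjusted p = 0.0258) and 1.33 ± 0.27 (adjusted p = 0.00663). The disulfiram call was lost without control 1, control 3, disulfiram 1 or disulfiram 3 (adjusted p 0.0724 to 0.104). P4HA2, a subunit of collagen prolyl hydroxylase, held 67.2, 70.5 and 51.4 TPM in controls, 81.9, 102.0 and 94.6 TPM with disulfiram, 57.5, 70.9 and 52.7 TPM with thalidomide and 86.1, 81.9 and 75.4 TPM in the combination. P4HA2 rose with disulfiram by 0.56 ± 0.14 (adjusted p = 0.0211), with no overlap. The call was lost without control 3, disulfiram 2 or disulfiram 3 (adjusted p 0.0599 to 0.0776) and under median-of-ratios scaling (adjusted p = 0.0793); in the combination it was 0.37 ± 0.14 (adjusted p = 0.0682).

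ERO1A, an oxidase that helps proteins form disulfide bonds, held 14.4, 22.8 and 10.8 TPM in controls, 31.9, 16.5 and 37.6 TPM with disulfiram, 12.2, 17.4 and 12.0 TPM with thalidomide and 40.4, 24.9 and 29.9 TPM in the combination. It rose in the combination by 0.98 ± 0.31 (adjusted p = 0.0398). The call was lost without control 1, control 3, combination 1 or combination 3 (adjusted p 0.0955 to 0.144), and under the GC correction (adjusted p = 0.127). With disulfiram ERO1A was at 0.79 ± 0.31 (adjusted p = 0.121), and without the second disulfiram library at 1.13 (adjusted p = 0.0253). P4HA1, the other collagen hydroxylase subunit, ranged from 13.8 to 42.9 TPM and was not called (0.64 ± 0.27 with disulfiram, adjusted p = 0.149).

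**Figure D4:**
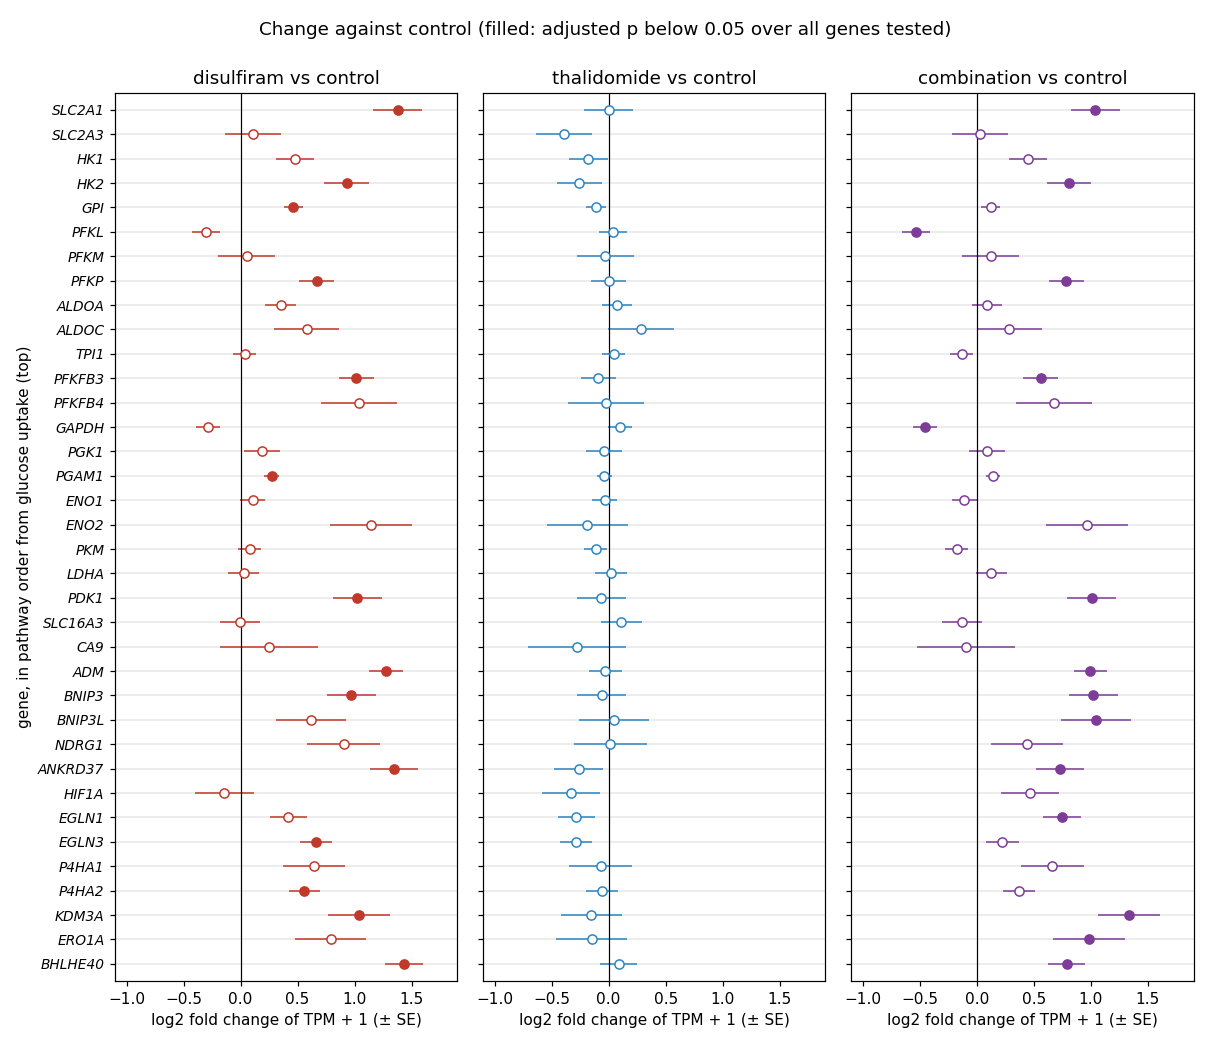
Log2 fold change of TPM + 1 against control for the 36 members in pathway order, 1 panel per treatment, with bars for the SE; filled points passed the adjusted p threshold. Filled points number 14 with disulfiram, 0 with thalidomide and 15 with the combination.

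Thalidomide alone moved none of the 36 past the threshold. The member median was -0.05, beside -0.03 for all genes, no member had an unadjusted p below 0.05, and 0.0% of all genes were called by limma (873 of 15352 had an unadjusted p below 0.05). The SEs were of the same size as those of disulfiram, since all groups share 1 estimate of the spread.

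In the combination, 13 members were higher and 2 lower than in control, beside 18.4% and 6.7% of all genes tested. The member median was 0.44, and the median of all genes was 0.20. The disulfiram and combination contrasts share the 3 controls. The 10 members called higher in both were ADM, ANKRD37, BHLHE40, BNIP3, HK2, KDM3A, PDK1, PFKFB3, PFKP and SLC2A1. EGLN3, GPI, P4HA2 and PGAM1 were called with disulfiram but not the combination, and BNIP3L, EGLN1 and ERO1A the reverse. Under median-of-ratios scaling, which moved the median of all genes from 0.20 to 0.00, 9 members were higher and 2 lower, and the member median was 0.22. Over all genes this scaling moved the share of called genes that were higher from 73.3% to 36.2%, quantile normalization to 41.8% and the GC correction to 40.9%. Without combination 1, 8 members were higher and 2 lower, and without combination 3, 10 were higher and none lower. Of all 15352 genes, 1664 (1105 higher) and 1426 (934 higher) were called in turn.

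The direct comparison of combination with disulfiram called no member. limma called 0.00651% of all genes (1 of 15352), and 7 members had an unadjusted p below 0.05 (2631 of all genes). The member median was -0.17, beside 0.06 for all genes, and 10 of 36 members had a positive value. In 8 members all combination libraries lay below all disulfiram libraries: GPI, PFKFB3, PGAM1, ADM, NDRG1, ANKRD37, EGLN3 and BHLHE40, where 6.54% of all genes did so. No member lay wholly above, where 9.69% of all genes did. The largest negative differences were BHLHE40 at -0.64 ± 0.16 (adjusted p = 0.256) and ANKRD37 at -0.61 ± 0.21 (adjusted p = 0.265). HIF1A had the largest positive one, 0.61 ± 0.26 (adjusted p = 0.276). So the calls that appear in 1 treatment only were not shown to differ between treatments.

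The combination differed from thalidomide in 21 members, 19 higher and 2 lower (PFKL and GAPDH), beside 25.0% and 7.24% of all genes. The members' median was 0.57 and that of all genes 0.22. KDM3A had the largest difference (1.49 ± 0.27, adjusted p = 0.00319), and EGLN1 (1.03 ± 0.17, adjusted p = 0.00168) and HK1 (0.63 ± 0.17, adjusted p = 0.0177) were among those higher. Leaving out thalidomide 3 or combination 3 lost the HK1 call (adjusted p 0.0541 and 0.0556). PGAM1 was at 0.18 ± 0.06 (adjusted p = 0.0491), a call lost without each of 11 libraries in turn (adjusted p 0.0528 to 0.131). Over all genes the share of called genes that were higher moved from 77.5% to 40.0% under median-of-ratios scaling, 45.6% under quantile normalization and 45.2% under the GC correction. The test of the interaction, whether the combination departs from the sum of both single drugs on the log2 scale, called no member and 0.0% of all genes. Of the members, 3 had an unadjusted p below 0.05, against 1580 of all genes: BHLHE40 (-0.73 ± 0.23), HIF1A (0.94 ± 0.36) and EGLN1 (0.61 ± 0.23), each with an adjusted p of 0.466.

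Other genes of these pathways were taken from fixed lists, which were also chosen with earlier results of these data known. Of 43 tested genes in the wider HIF pathway, 13 rose (30.2%) and 2 fell (4.7%) with disulfiram, with a median of 0.43, beside 8.73% and 4.52% of all genes; the share that fell was near that of all genes. The 4 largest rises were MIR210HG, the host transcript of a hypoxia-induced microRNA (1.46 ± 0.35, adjusted p = 0.019), FUT11, a fucosyltransferase (1.38 ± 0.29, adjusted p = 0.00964), ANGPTL4, an inhibitor of lipoprotein lipase (1.37 ± 0.37, adjusted p = 0.0296), and HILPDA, a lipid droplet protein (1.03 ± 0.23, adjusted p = 0.0137). IGFBP3, which binds insulin-like growth factors, fell by 0.68 (SE 0.16, adjusted p = 0.0153), and so did STC2, a secreted glycoprotein (SE 0.19, adjusted p = 0.0358). The count depended on single libraries: without control 3 it was 6 higher and none lower, and without disulfiram 3 it was 6 higher and 2 lower. The call of FUT11 was kept under every alternative. MIR210HG lost it without control 3 or disulfiram 3 (adjusted p 0.0556 and 0.0784), and HILPDA without control 1, control 3 or disulfiram 3 (adjusted p 0.0555 to 0.0606). ANGPTL4 lost it without control 1, control 3 or any disulfiram library (adjusted p 0.0561 to 0.106). IGFBP3 lost it without control 1, control 3 or disulfiram 1 (adjusted p 0.0516 to 0.062). STC2 lost it without control 2, control 3, disulfiram 1, disulfiram 2 or combination 3 (adjusted p 0.0525 to 0.132). VEGFA, the angiogenic growth factor, was at 0.47 ± 0.15 (adjusted p = 0.0578). Of other genes of the HIF machinery, VHL (-0.10), HIF1AN (-0.05), EGLN2 (0.04), ARNT (0.26) and EPAS1 (-0.10) were not called with disulfiram. HIF3A was not called either (0.43 ± 0.30, adjusted p = 0.377). CITED2 of the same list was called higher with disulfiram (0.65 ± 0.13, adjusted p = 0.00896) and with the combination (0.64 ± 0.13, adjusted p = 0.00782). With the combination 12 of the 43 rose (27.9%) and 2 fell (4.7%), beside 18.4% and 6.7% of all genes, with a median of 0.31, and without control 3, combination 1 or combination 3 it was 6 to 7 genes in all. No gene of either list was called between combination and disulfiram.

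Of 20 tested genes in the wider glucose metabolism list (34 listed), disulfiram called 1. PCK2, the mitochondrial enzyme that makes phosphoenolpyruvate, held 59.4, 66.2 and 62.5 TPM in controls and 36.3, 44.7 and 41.4 TPM with disulfiram, with no overlap. It fell by 0.61 (SE 0.11, adjusted p = 0.00517). The combination libraries held 37.3, 44.7 and 35.8 TPM, and PCK2 fell there by 0.67 (SE 0.11, adjusted p = 0.00322). Its disulfiram call was kept under every alternative, and under 10 of the 20 alternatives 1 to 3 further genes of the list were called. The median of that list with disulfiram was 0.13, beside 0.09 for all genes.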

How the data were processed

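Expression was measured by RNA sequencing in 12 Huh7 libraries, 3 for each of 4 groups, grouped by their labels. The authors deposited TPM per gene; every column sums to 999999 to 1000001. The submitters' processing notes name HISAT2 2.0, StringTie 1.3.0 and the build hg38, without their roles; annotation and filters are not stated there. TPM keeps no read counts, so depth is unknown and no counting interval is given, and values of overlapping genes and near-identical copies are uncertain. A change in a few abundant transcripts shifts all other TPM values.

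Symbols and coordinates are from GENCODE 29, which holds 58611 of 58884 Ensembl identifiers. Genes at 1 TPM or more in at least 3 of 12 libraries were tested (15352). limma 3.58.1 in R 4.3.3 (two-sided, trend, all libraries in 1 fit) was run on log2(TPM + 1) of the deposited values, with Benjamini-Hochberg adjustment over all genes tested, and was tested on simulated data. Alternatives were another pseudocount (0.1), no filter, median-of-ratios scaling, quantile normalization, GC correction, only the compared groups, a replicate block, and leaving out libraries.

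The members and lists were chosen with earlier results of these data known. Values in every library are given for members called with disulfiram, the combination or between them, for the most abundant member of each role and for HIF1A. From each other list, at most the 4 largest rises and 4 largest falls past the threshold with disulfiram are named. Alternatives for those 2 lists were added after seeing the data, and VEGFA, CITED2, HIF3A and the 5 further genes of the HIF machinery were named after their values were seen.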

Additional observations from a re-analysis of the deposited data

How the results depend on the processing

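Of the calls against control, 8 of 14 with disulfiram (ADM, ANKRD37, BHLHE40, EGLN3, HK2, PDK1, PFKFB3 and SLC2A1) and 7 of 15 with the combination (ADM, BHLHE40, BNIP3, EGLN1, KDM3A, PDK1 and SLC2A1) were kept under each of 20 alternatives, and no called member changed sign there. Of the members not called, 9 with disulfiram and 11 with the combination changed sign under at least 1 alternative, among them HIF1A in both. Members called ranged from 10 to 17 with disulfiram, 10 to 16 with the combination and 14 to 21 between combination and thalidomide when 1 library was left out. Over all genes those counts ranged from 1173 to 2190, 1426 to 5085 and 2174 to 5844, against 2034, 3852 and 4946 with all libraries. Between combination and thalidomide, median-of-ratios scaling called 13 members (10 higher, 3 lower) in place of 21, and PGAM1 reversed to -0.0855 (adjusted p = 0.55). The cause was not tested. Of all genes that scaling called 4000 in place of 4946. Without the filter, which adjusts over 32929 genes, KDM3A and P4HA2 lost the disulfiram call, and ANKRD37, BNIP3L, ERO1A, GAPDH and PFKFB3 the combination call. With the second disulfiram and combination libraries removed, 15 members were higher and 1 lower with disulfiram, and 13 higher and 3 lower with the combination. Of all 15352 genes, 2527 were called there with disulfiram (1772 higher) and 5850 with the combination (4515 higher). With the replicate block, 17 members were called with disulfiram (PFKFB4, ENO2 and NDRG1 added), 16 with the combination (14 higher, 2 lower) and 21 against thalidomide. Of all 15352 genes, the block called 1786, 3584 and 4632 in the same order. The replicate numbers gave no pairing that held in all groups. Deviations of same-numbered libraries correlated at -0.11 to -0.059 between control and disulfiram and at -0.12 to 0.082 between control and combination. Between control and thalidomide they correlated at -0.043 to 0.17, and 3 of 6 libraries correlated best with their own number. Between disulfiram and combination it was 0.03 to 0.37, and 4 of 6 did so. Replicate 3 was the lowest of its group for 31 of 36 members in control, 28 with thalidomide and 23 in the combination, but for 1 with disulfiram. Whether a number stands for a shared culture was not tested. A fit of only the compared groups could not be made for the interaction. Without read counts the depth behind low members such as PFKP and ANKRD37 cannot be given.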

Other observations

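Several genes of glucose metabolism typical of the normal liver were at or near 0 in these cells. The glucose transporter SLC2A2 (GLUT2) was listed at 0 to 0.09 TPM over the 12 libraries. The liver pyruvate kinase PKLR lay at 0.28 to 1.75 TPM and PCK1, the cytosolic gluconeogenic enzyme, at 0.01 to 0.66 TPM. Not all such genes were that low, since FBP1, another gluconeogenic enzyme, stood at 4.84 to 7.36 TPM. LDHB, the lactate dehydrogenase subunit that favours pyruvate, was listed at 0 to 0.56 TPM, so nearly all lactate dehydrogenase RNA was LDHA. ENO3, the muscle enolase, stood at 124.3 to 199.7 TPM, above ENO2 in every library. These genes were chosen for this description after their values were seen, and it makes no comparison between groups. FBP1 and ENO3 were among the tested genes of the glucose metabolism list above. With all libraries neither was called against control.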
